A study of Homo sapiens with 24 samples.

Results

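A set of 532 microarray probes against long non-coding RNAs (lncRNAs), from 375 transcripts, was well above background in RNA of whole untreated fibroblasts and on no array of sucrose gradient fractions from the same condition. They were selected on measured values, namely the scanner software's flag for a spot well above background, which had to be set on all 3 control total RNA arrays and on none of the 9 control gradient arrays. The array held 44002 lncRNA probes for 22007 transcripts. Of these probes, 9668 were well above background on all 3 control total arrays, and the 532 made up 5.50% of them. A further 4172 were also well above background on 1 to 8 control gradient arrays, and 4964 on all 9.

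The cells were MRC5, a human lung fibroblast line, left untreated (control) or given 0.2 mM H2O2 over 2 hours (oxidative stress, OS). Cells for the gradients received cycloheximide, which arrests ribosomes on their transcripts, before lysis. The study's methods do not state whether the cells for the total RNA arrays also did. They describe the total RNA on the arrays as from whole cell extracts. For the polysome protocol they mention total RNA from lysates that were not fractionated. Total RNA and 3 pools of gradient fractions were each hybridised in 3 replicates per condition, giving 24 single-color arrays. Fractions 1 to 9 formed the untranslated pool. The low pool, of few ribosomes per transcript, held fractions 10 to 14, and the high pool held the remaining ones up to fraction 23. The lysates were cleared by centrifugation before they were loaded, so the pelleted material was not part of any pool. Every array received 100 ng of RNA labelled from an oligo-dT primer. OS low replicate 3 was left out of every value below except where it is named, because 93.3% of all lncRNA probes were well above background on it, compared with 14.5% to 36.3% on the other 23 arrays. Levels are given as log2 of the scanner's processed signal, with the background already subtracted by the software, after quantile normalization over the lncRNA probes. This makes a level relative to the other lncRNA probes on its array. Of the fibroblast markers looked up, 4 of 9 had a probe on the array, and all 4 (COL1A1, COL3A1, THY1, LUM) were well above background on every total RNA array. Of the markers of other cell types, CLDN4, CDH5 and PTPRC were well above background on all 3 control and all 3 OS total arrays, among 6 of 11 with a probe, and their part in the results was not tested.

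LncRNAs are transcripts longer than most small RNAs that lack a recognised protein-coding frame. Many are kept in the nucleus, where some act at chromatin or organise nuclear bodies, while others reach the cytoplasm and can be found with ribosomes. In a sucrose gradient, free ribonucleoprotein particles and single ribosomes stay near the top, and transcripts that carry more ribosomes sediment deeper. A transcript measured in whole cells therefore has to leave the cell pellet and stay intact in the lysate before it can appear in any pool.

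The custom probes carry an Ensembl transcript identifier and no genomic position. Through Ensembl identifiers shared with mRNA (catalog) probes of the same array, 10 of the 375 transcripts, with 15 of the 532 probes, could be tied to 8 current gene symbols. The first or a central part of these probes is printed to show what was hybridised. Capitals mark bases that both probes of a transcript have in common, where both were selected. The other probe of RGMB-AS1 was not selected, so the run of 35 bases that it shares is not marked. The coordinates are those of the catalog probe on GRCh37, not of the lncRNA probe.

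LINC00685 (PPP2R3B-AS1 on the array), probe bases 1 to 30: TCTACGTTACTTTATGTGGGAGTAGTTGTA
LINC00685, the other probe, bases 1 to 30: tTCTACGTTACTTTATGTGGGAGTAGTTGT
SCARNA16, probe bases 1 to 30: TGGTTGTAGTTAGTATCAGAGAGCCCTTGC
SCARNA16, the other probe, bases 11 to 40: ttaaagaaaaTGGTTGTAGTTAGTATCAGA
LINC00312, probe bases 1 to 30: gacgttggtataacattgcttcttgaaaaa
LINC00312, the other probe, bases 1 to 30: ttcctttgggtctctaataatggaaactgc
PRIM2 locus, probe of ENST00000419977.2, bases 1 to 30: ccgtgcatttcagaaaacttctggcatgtt
RGMB-AS1, probe bases 1 to 30: tagattttcctatcaatagagggcgtcctc

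The catalog probe of LINC00685 lies in the pseudoautosomal region that the sex chromosomes share, that of SCARNA16 at chr17:75085516-75085575, that of LINC00312 at chr3:8615322-8615381, that of PRIM2 at chr6:57190782-57190841 and that of RGMB-AS1 at chr5:98106784-98106843. The 2 probes of LINC00685 share 59 of 60 bases and those of SCARNA16 share 40. The 2 probes of LINC00312 have no run of more than 5 bases in common. One LINC00685 probe has the same sequence as its catalog probe.

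The name of a transcript and the pattern of its probe were not the same thing. Of the 8 catalog probes with a symbol, 7 were well above background on all 3 control total arrays, and 6 of the 8 were so on at least 1 control gradient array. The catalog probes for SCARNA16, EIF3J-DT and RGMB-AS1 were well above background on all 9 control gradient arrays, whereas the lncRNA probes listed under the same Ensembl identifiers were so on none. SCARNA16 is a small Cajal body RNA, EIF3J-DT a divergent transcript next to EIF3J, and RGMB-AS1 an antisense transcript of RGMB. Absence from the gradient is therefore stated of the probes and not of every RNA of a locus.

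Not being well above background is also weaker than being absent. On a laxer flag, a signal positive and significantly above the local background, the 532 probes were set on a median of 4 of 9 control gradient arrays. A total of 94 were set on none, 236 on 5 or more, and 19 on all 9. Per array, between 122 and 309 of the 532 passed this laxer flag. The levels on these arrays differ by the selection itself and are given as a description. The median level of the 532 was 6.25 to 6.51 on the control total arrays and 3.09 to 3.29 on the control gradient arrays, below the median of all lncRNA probes, 3.81 on every array after quantile normalization. Because a dim spot gives only a bound, the gap was also taken against the lowest signal counted as well above background on each gradient array. On that bound, control total RNA was at least 2-fold above the control gradient for 260 of the 532, at least 4-fold for 109 and at least 10-fold for 16, with a median of 1.94 and a highest value of 38.5. For 9 of the 532 the bound was below 1, so no fold can be given.

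**Figure D1:**
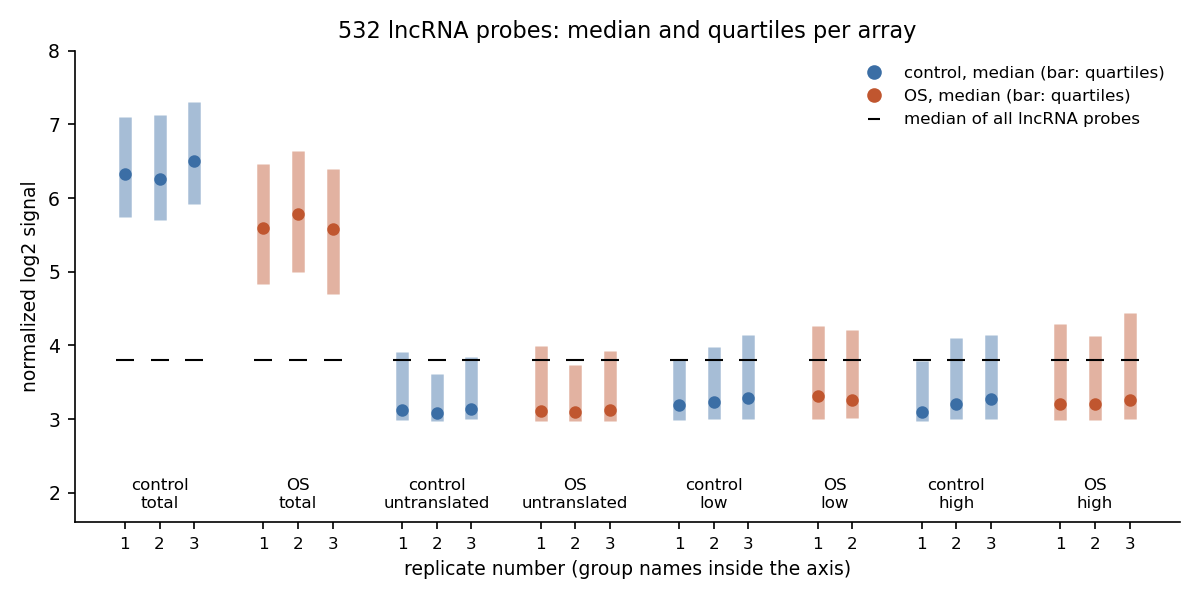
Normalized log2 signal of the 532 probes on each of 23 arrays, grouped by condition and RNA, with points at the median, bars over the quartiles and dashes at the median of all lncRNA probes. The control total medians lie at 6.25 to 6.51, the OS total medians at 5.58 to 5.78, and all gradient medians below 3.81.

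At the edge of the selection, the lowest processed signal on any control total array was 39.2, for ENST00000439593.1. The brightest probe, for ENST00000501122.2, had a lowest signal of 1774 there. Another 172 probes missed only because they were well above background on 2 of 3 control total arrays, with a median signal of 55.0 there compared with 107 for the 532. A further 151 missed because of 1 of the 9 control gradient arrays. Their highest gradient signal had a median of 66.1, compared with 26.0 for the 532.

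The other probe of each transcript was not part of the selection of a given probe, and every one of the 532 had another probe with a different sequence. In 314 cases (59.0%) the other probe was itself among the 532. In 420 cases (78.9%), which include these 314, it was well above background on no control gradient array. This also held for 25372 of the 44002 lncRNA probes besides the 532. In the remaining 112 cases the other probe was well above background on 1 or more control gradient arrays. In 97 of these it was also well above background on all 3 control total arrays. Among all 532 cases, the other probe was on no control total array in 46. Both probes often cover nearly the same bases. Among the 157 transcripts with both probes selected, the probes of 130 shared a run of 20 or more bases. In addition, 55 of the 532 probes have exactly the same sequence as some other probe of the array. Where the probes of 1 sequence stand for different transcripts, the signal cannot be assigned to 1 of them.

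The probes were rich in A and T. The median GC content was 38.3% for the 532 (quartiles 35.0% and 43.3%), compared with 43.3% (quartiles 38.3% and 45%) for lncRNA probes on all 3 control total arrays and on 1 or more control gradient arrays. Over 16 equal zones of the array surface, the 532 were spread with 16 to 49 in each zone, or 3.01% to 9.21%, where the 9668 had 4.33% to 6.86%. The part of base composition or position in the results below was not tested.

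The comparison of OS with control total RNA asks whether these transcripts change in whole cells upon stress. Most estimates were negative. Of the 532 probes, 240 (45.1%) were called lower, 15 (2.82%) higher and 277 did not pass the test (limma, Benjamini-Hochberg adjusted p under 0.05 over all tested lncRNA and mRNA probes). Over all tested lncRNA probes, 7.99% were called lower and 11.1% higher, and over lncRNA and mRNA probes together 7.86% and 8.52%. The median change of the 532 was -0.86 on the log2 scale (quartiles -1.52 and -0.32), compared with -0.04 for the 11736 tested lncRNA probes. In these bulk samples fewer cells holding a transcript and less RNA per cell cannot be told apart. Per the study's methods each replicate came from its own RNA preparation, while the labels do not say whether the cultures were separate. The p-values thus measure a spread between preparations that is pooled over all 8 groups of the fit. This spread includes the gradient arrays, on which these probes were mostly dim. Fitted on the 6 total RNA arrays alone, 325 of the 532 were called lower and 37 higher. The shares over all tested probes above are not from that fit, so these 2 counts have no background beside them.

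The control total arrays chose the probes, and a value that has to be high in 1 group can favour a lower value in the other, so these counts, and the adjusted p of single probes below, are a description. The 4172 probes that passed the same requirement in control total RNA and were well above background on 1 to 8 control gradient arrays had a similar control total level, with a median of 6.19 against 6.32, and 7.67% of those tested were called lower and 4.28% higher. Their median change was -0.25. For the 4964 on all 9 gradient arrays, 7.68% were called lower, 7.72% higher, and the median change was -0.02. A total of 318 of the 532 were well above background on all 6 total RNA arrays, a condition that treats control and OS alike. Of these, 98 (30.8%) were called lower and 15 (4.72%) higher, with a median change of -0.52. Of the 3621 tested probes that met it and were on 1 to 8 control gradient arrays, 6.71% were called lower and 4.92% higher, with a median change of -0.19.

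The shift was present on each of the 3 slides, which carried 1 control and 1 OS total array each. The median OS minus control difference of the 532 was -0.88, -0.65 and -1.11 on slides 1, 2 and 3. For the tested probes on 1 to 8 control gradient arrays it was -0.27, -0.20 and -0.25. The control total array of every slide took part in the selection, so the slides are no separate check of it. The lower calls came from every level. Among the 133 dimmest probes 41 were called lower and among the 133 brightest 74, or 30.8% and 55.6%. Non-overlapping values were more frequent than calls. All 3 OS values lay below all 3 control values for 379 of the 532 and above them for 52, whereas 24.8% and 22.1% of all tested lncRNA probes had such a separation.

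**Figure D2:**
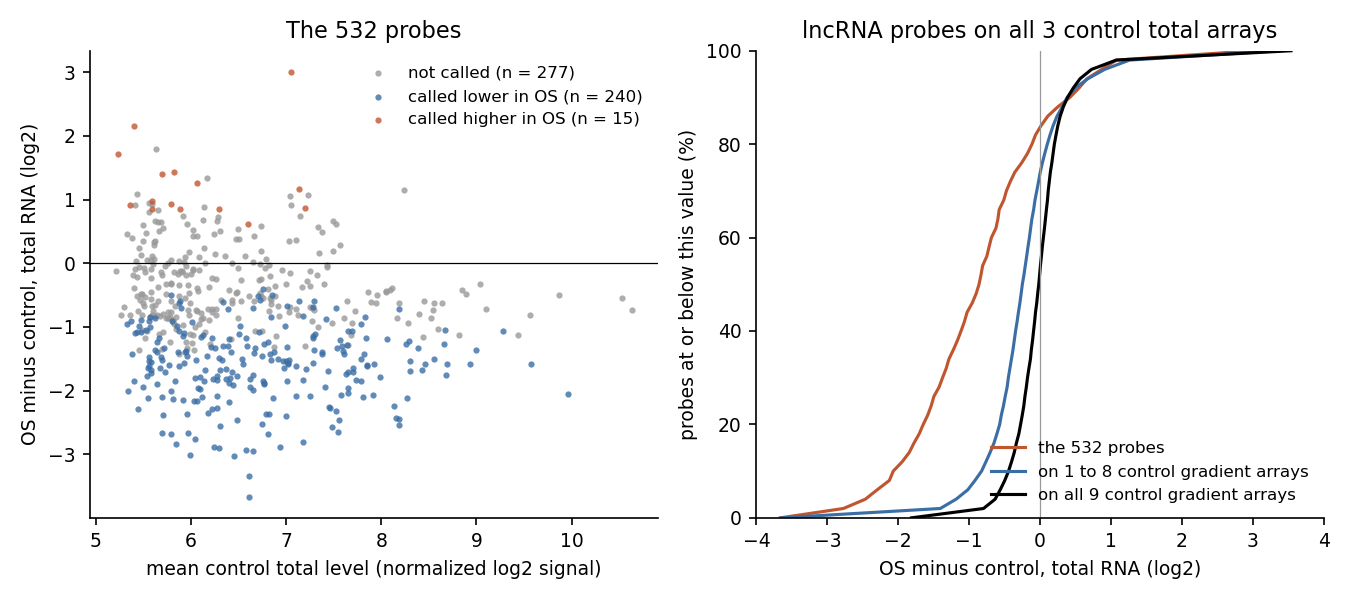
Left, OS minus control difference in total RNA (log2) of each of the 532 probes against its mean control total level, coloured by the limma call. Right, the cumulative share of probes at or below a given difference for the 532 and for lncRNA probes also on 1 to 8 or all 9 control gradient arrays. The median is -0.86 for the 532 and -0.25 and -0.02 for the others.

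The 5 probes with the most negative change among those called without overlap, all tested through control total RNA alone, were for ENST00000339009.5, ENST00000415340.1, ENST00000547898.1, ENST00000507938.1 and ENST00000589702.1. ENST00000339009.5 measured 6.68, 6.38 and 6.76 on the control total arrays and 2.93, 2.88 and 3.02 on the OS total arrays. The OS values lay at the bottom of the scale, where its 9 control gradient values (2.87 to 3.04) and 8 OS gradient values also lay, so it was measured in untreated whole cells and nowhere else. It was at least 3.57-fold lower upon OS, taking the lowest signal counted as well above background on each OS total array. Its other probe, which shares 59 bases and was also selected, was likewise on no OS total array.

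ENST00000415340.1 went from 6.50, 6.27 and 7.06 to 3.44, 2.98 and 3.41 and was at least 3.58-fold lower. ENST00000547898.1 fell at least 3.21-fold, ENST00000507938.1 at least 2.34-fold and ENST00000589702.1 at least 3.68-fold. The other probes of these 4 transcripts were also among the 532, were chosen on the same control total arrays and were on no OS total array. None of the 5 was well above background on any OS array.

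The highest increase was that of ENST00000584721.1. Its control total values were 6.90, 6.93 and 7.31 and its OS total values 10.11, 10.30 and 9.74, an increase of 3.00 (SE 0.38, adjusted p = 1.48e-05). Although it was among the brighter lncRNA probes in stressed whole cells, it was well above background on none of the 8 OS gradient arrays, with values of 3.22 to 4.81. Its other probe, which has no run of more than 6 bases in common with it and was well above background on 2 of 3 control total arrays, increased by 2.85 (SE 0.33, adjusted p = 6.02e-06) and was also on none of the gradient arrays of either condition.

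The other 4 probes among the 5 highest such increases rose less. ENST00000438893.2 measured 5.43, 5.51 and 5.26 in control and 7.63, 7.70 and 7.33 in OS total RNA, an increase of 2.15 (SE 0.25, adjusted p = 6.24e-06), and stayed at 2.86 to 2.93 on every OS gradient array. ENST00000439593.1 rose by 1.71 (SE 0.33, adjusted p = 0.0012). Both probes of ENST00000420537.1 rose, by 1.44 (adjusted p = 0.00021) and by 1.41 (adjusted p = 0.0289), and neither was well above background in any OS pool. The second of these calls was lost without any of control total replicates 1 and 3 or OS total replicates 1 and 2, with adjusted p up to 0.123.

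The 5 brightest transcripts with both probes selected had negative changes with every probe, and 5 of these 10 probes were called lower. ENST00000501122.2, the brightest, measured 10.97, 10.40 and 10.54 in control and 9.75, 10.13 and 9.82 in OS total RNA with 1 probe, a difference of -0.74 that did not pass the test (SE 0.28, adjusted p = 0.0867). Its other probe gave -0.55 (SE 0.37, adjusted p = 0.371). The probes of ENST00000578836.1 gave -1.07 (SE 0.24, adjusted p = 0.00455) and -1.13 (SE 0.40, adjusted p = 0.0615). ENST00000545709.1 fell by 2.05 (SE 0.36, adjusted p = 0.000455), from 9.81, 9.95 and 10.11 to 7.88, 8.20 and 7.65, and its other probe fell by 2.11. ENST00000532350.1 gave -1.57 and -1.36 (adjusted p = 7.7e-05 and 0.000423), both called. The probes of ENST00000432268.1 gave -0.72 and -0.62 (adjusted p = 0.319 and 0.358), although the OS and control values of both did not overlap.

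Of the transcripts with a symbol, the PRIM2 locus probe of ENST00000419977.2 measured 8.66, 8.50 and 8.82 in control and 7.38, 7.52 and 7.27 in OS total RNA and fell by 1.27 (SE 0.29, adjusted p = 0.00504). The other probe of this transcript, which was on 2 control and 2 OS gradient arrays and so not selected, gave -1.10 and did not pass the test (adjusted p = 0.0951). PRIM2 encodes a subunit of DNA primase. Both probes of ASMTL-AS1, an antisense transcript of ASMTL, fell, with changes of -1.11 and -1.14 (adjusted p = 0.03 and 0.0432). Neither probe of LINC00685 passed the test in total RNA, with 0.50 and 0.29 (adjusted p = 0.129 and 0.341). The remaining symbols were named after their values were seen. LINC00312 gave 0.06 with both probes (adjusted p = 0.948 and 0.905), EIF3J-DT 0.46 and 0.66 (adjusted p = 0.564 and 0.429), SCARNA16 -0.91 and -1.06 (adjusted p = 0.134 and 0.139) and RGMB-AS1 -1.0 (adjusted p = 0.129). The LOC100133920 probe fell by 1.17 (adjusted p = 4.38e-07), but its sequence is also that of another probe. The other 2 PRIM2 locus probes, which have identical sequences, were both called, at -1.13 and -0.92.

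Probes of the same transcript gave like changes. For the 157 transcripts with both probes selected, the 2 changes had the same sign in 156, and Pearson's r across transcripts was 0.953. Overlap of the probes makes this partly a repeat of 1 measurement. For the 27 transcripts whose probes shared fewer than 20 bases, all 27 pairs had the same sign and r was 0.954. Both probes were called lower in 69 transcripts and higher in 2, 1 of them was called in 25, and no transcript had opposite calls. These are descriptions across transcripts, which share the same 6 arrays.

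**Figure D3:**
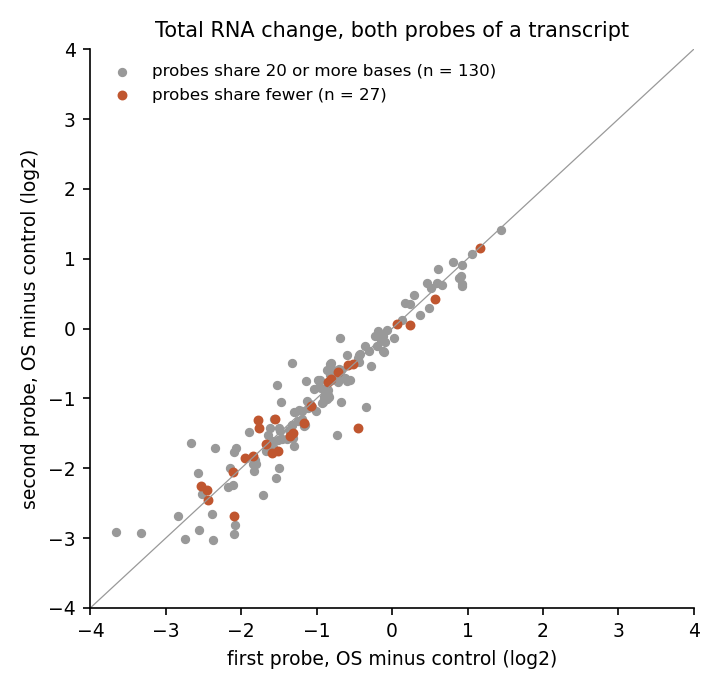
OS minus control difference in total RNA (log2) of the second against the first probe of 157 transcripts with both probes selected, with the line of equal values. Points lie along the line both for 130 pairs sharing 20 or more bases and for 27 pairs sharing fewer, with r = 0.954 in the latter.

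The OS arrays played no part in the selection, so detection on them is a separate reading of the same pattern. In OS total RNA, 318 of the 532 (59.8%) were well above background on all 3 arrays, 58 on 2, 93 on 1 and 63 on none. Of the 9136 lncRNA probes that were on all 3 control total arrays and on at least 1 control gradient array, 94.0% were well above background on all 3 OS total arrays, and of all lncRNA probes 25.0%. Of the 4172 on 1 to 8 control gradient arrays, 87.0% were. The 63 probes on no OS total array included 60 called lower. Their bounded fall had a median of 2.06-fold and ranged from 1.38 to 4.50. Per array, 65.6%, 87.2% and 65.8% of the 532 were well above background on OS total replicates 1, 2 and 3, and replicate 2 also had the highest share over all lncRNA probes, 36.3% against 28.0% and 28.5%.

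The same pattern under OS, that is all 3 OS total arrays and none of the 8 OS gradient arrays, was met by 233 of the 532 (43.8%). Over all lncRNA probes 618 (1.40%) met it, so the shared 233 are 37.7% of the probes with this pattern under OS.

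The gradient arrays of stressed cells answer whether the transcripts appear in any pool upon stress. The answer depends on the flag. Of the 532 probes, 425 (79.9%) were well above background on none of the 8 OS gradient arrays, 51 on 1 array and 56 on 2 or more, up to 7 arrays for 2 probes. On the laxer flag, 433 of the 532 were on at least 1 OS gradient array. The 107 on at least 1 array (20.1%) compare with 9.57% of the other lncRNA probes that were on no control gradient array and with 40.3% of all lncRNA probes. Most of the former were also dim in total RNA, which the 532 by selection were not. The selection also fixed the absence of the 532 from the control gradient arrays. With control low replicate 1 left out of the selection, 582 probes met it in place of 532. The additional ones were well above background on that control gradient array alone. Whether the appearance upon OS goes beyond such variation between arrays was not tested.

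Appearance on every array of a pool was rarer. It held for 45 of the 532 (8.46%; 279 on the laxer flag), from 36 transcripts, compared with 1.65% of the other lncRNA probes on no control gradient array and 29.1% of all lncRNA probes. The low pool, with only 2 arrays, accounted for 28 alone and for another 10 together with the high pool. A total of 4 were in the high pool alone and 3 in the untranslated pool alone. Of the 45, 43 were well above background on all 3 OS total arrays. None was called lower in total RNA and 4 were called higher. As many as 37 had passed the laxer flag on 5 or more of the 9 control gradient arrays, compared with 236 of the 532.

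Per array, the number of the 532 that were well above background was 7, 12 and 9 in the OS untranslated pool, 55 and 57 in the low pool, and 37, 22 and 41 in the high pool. The pools also differed over all lncRNA probes, with 17.9% to 19.5% well above background in the untranslated pool, 31.4% and 32.4% in the low pool and 22.6% to 26.4% in the high pool. The part of this difference in the order of the pools was not tested. The median level of the 532 was 3.09 to 3.31 on the 8 OS gradient arrays and 3.09 to 3.29 on the 9 control ones.

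**Figure D4:**
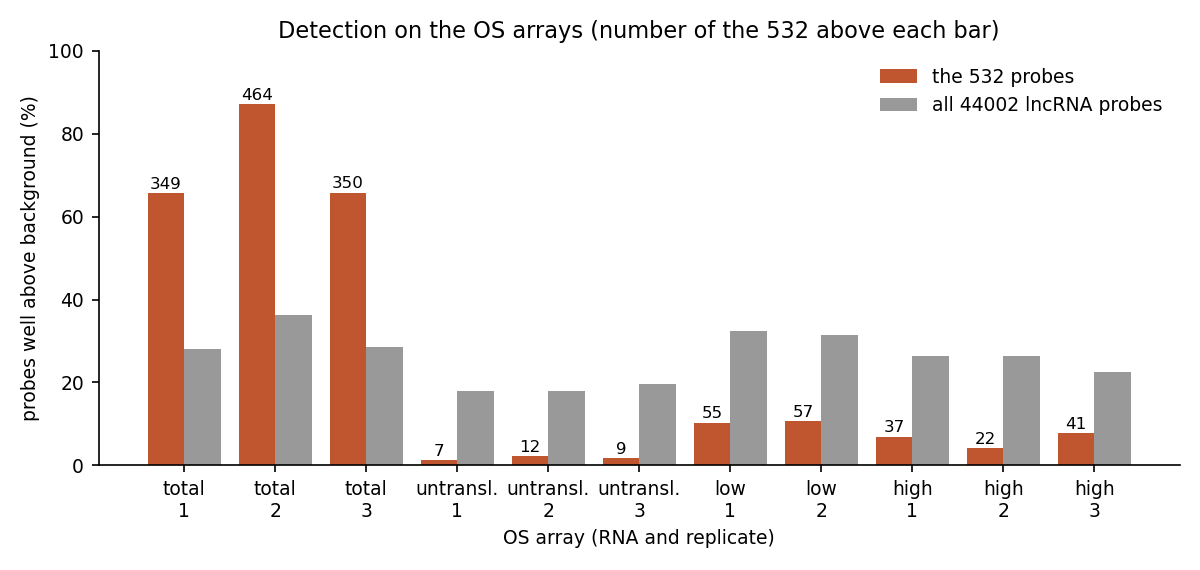
Share of probes well above background (%) on each OS array in use, for the 532 probes and for all 44002 lncRNA probes, with the number of the 532 over each bar. The 532 exceed the share of all lncRNA probes on the 3 total arrays and lie below it on all 8 gradient arrays.

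Probes that appeared in a pool were seldom those called lower in total RNA. Of the 240 called lower, 11 (4.58%) were well above background on at least 1 OS gradient array and none on every array of a pool. The corresponding numbers were 92 of 277 (33.2%) for those not called and 4 of 15 (26.7%) for those called higher. The median change in total RNA was -1.06 for the 425 on no OS gradient array and 0.03 for the 45 on every array of a pool. The calls use the control total arrays that chose the probes and a spread that includes the gradient arrays. The split by call is therefore a description, and no test was made of it.

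LINC00685 stood out among the transcripts with a symbol. Its non-shared probe measured 7.54, 7.49 and 7.69 in control and 7.98, 8.09 and 7.52 in OS total RNA. In the high pool it measured 3.15, 3.17 and 3.18 in control and 7.57, 7.08 and 7.53 upon OS. All 3 OS values were well above background, while no control value could be, by the selection. The OS high pool was at least 4.05-fold above the control high pool. As the selection asked for dim control pools, this and the bounds over control pools given below are a description. In the OS untranslated pool it measured 3.31, 3.40 and 3.23 and in the OS low pool 4.62 and 4.50, none well above background. The other probe gave at least 3.95-fold in the high pool. In the OS low pool this other probe measured 5.02 and 4.12, and 1 of the 2 arrays was well above background. The catalog probe of the same sequence was well above background on 4 of 8 OS gradient arrays and on no control gradient array.

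ENST00000501122.2 was the transcript found in the untranslated pool with both probes. In that pool 1 probe measured 4.38, 5.45 and 4.08 in control and 7.39, 7.11 and 7.07 upon OS, and the OS pool was at least 2.43-fold above control. The other probe gave at least 2.53-fold. The levels in the OS untranslated pool (mean 7.19, SD 0.17, n = 3) remained below those in OS total RNA (mean 9.90, SD 0.20, n = 3). In the OS low and high pools it measured 4.92 to 5.33, and only 1 of the 2 low arrays was well above background.

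The members that appeared on most OS gradient arrays were mostly in the low and high pools. ENST00000420195.1 was well above background on 7 of 8 arrays, with 6.34 and 6.13 in the low pool and 6.25, 6.14 and 6.39 in the high pool, compared with 7.64, 7.85 and 7.58 in OS total RNA. Its control values were 4.19 to 4.75 in the low pool and 3.03 to 4.00 in the high pool. One probe of ENST00000592034.1 was also on 7 arrays, with 6.70, 6.71 and 6.46 in the high pool, close to its 6.32, 6.72 and 5.95 in OS total RNA. In total RNA its change was 0.91 (adjusted p = 0.0559), and that of its other probe, 0.92, was called (adjusted p = 0.0241) but not when any of 5 of the 6 total RNA arrays was left out, with adjusted p up to 0.103.

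Both probes of ENST00000563394.1 were higher in the OS high pool than in OS total RNA. The brighter measured 6.81, 6.50 and 6.74 in that pool and 6.14, 6.04 and 5.83 in total RNA, and these values did not overlap. In the control high pool it measured 3.01, 4.85 and 4.86, and the OS pool was at least 2.47-fold above it. ENST00000443622.1 measured 5.95 and 6.24 in the OS low and 6.14, 6.71 and 6.22 in the OS high pool, overlapping its OS total values of 6.05, 6.60 and 5.85. ENST00000445184.1 was at least 4.54-fold above control in the low pool and 2.92-fold in the high pool. It rose in total RNA by 0.87 (SE 0.27, adjusted p = 0.0329), a call lost when any of control total replicates 1 and 2 or the OS total replicates was left out (adjusted p up to 0.111). Its other probe, which was on 6 of 9 control gradient arrays and so not selected, rose by 1.32 (adjusted p = 5.12e-06).

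For several of these transcripts the other probe had been well above background in the control gradient. It was so on 9 of 9 arrays for ENST00000570309.1, on 8 for ENST00000420195.1 and on 6 for ENST00000445184.1. ENST00000439593.1, which had the lowest processed signal of the 532 on a single control total array, was on all arrays of the OS low and high pools, with 5.30 and 5.37 and with 6.14, 5.49 and 6.14. Its other probe was on no control array at all and on all 3 OS total and 4 of 8 OS gradient arrays.

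**Figure D5:**
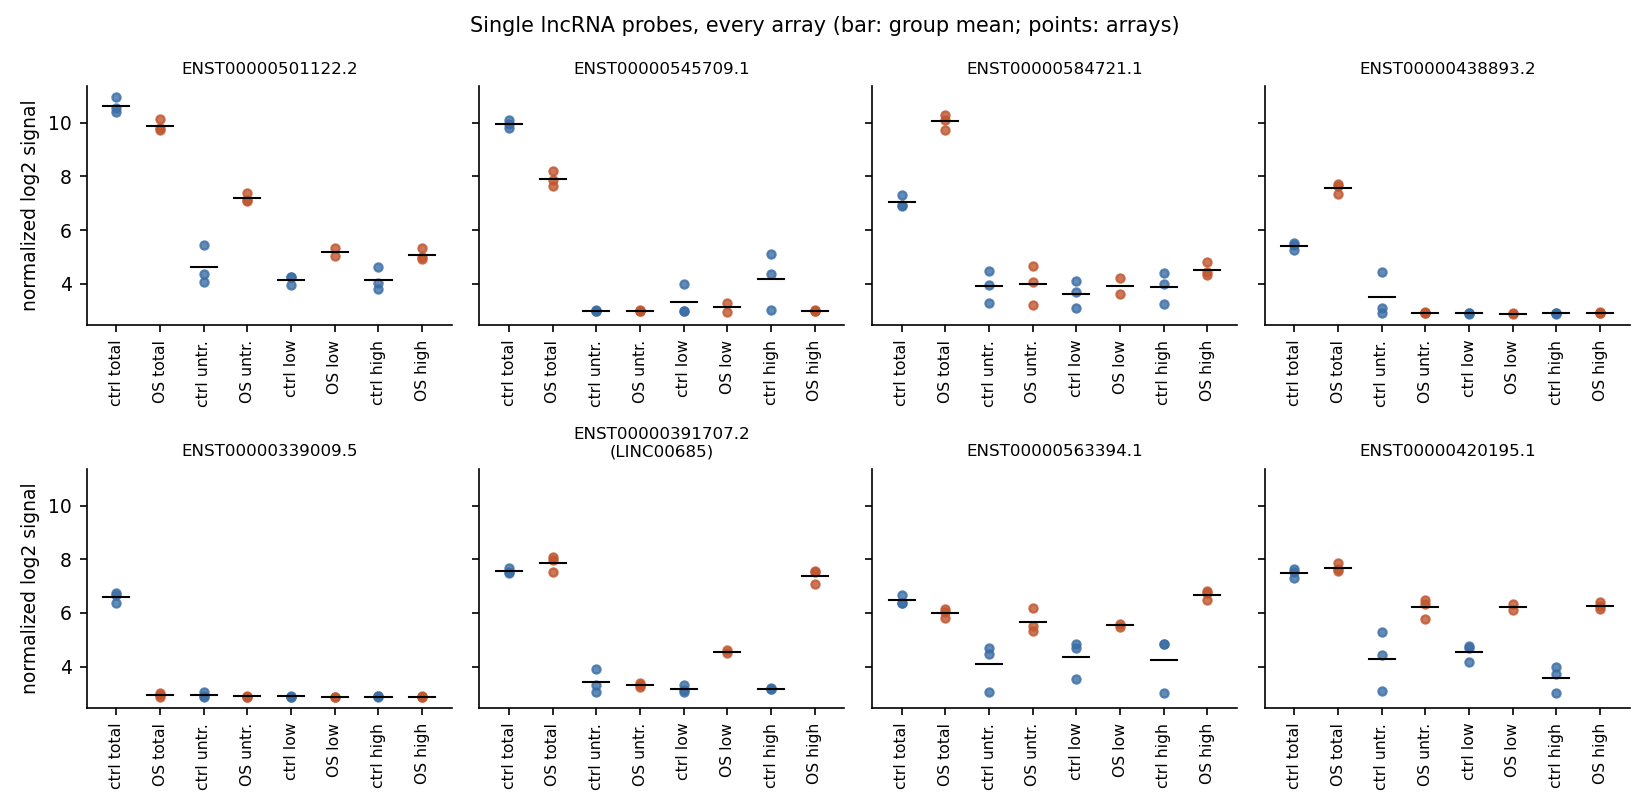
Normalized log2 signal of 8 single probes on every array in use, by group, with bars at the group means (n = 3, but n = 2 for OS low). ENST00000339009.5 is high in control total RNA alone, ENST00000584721.1 rises from 6.90, 6.93 and 7.31 to 10.11, 10.30 and 9.74 in total RNA and stays low in all pools, and LINC00685 reaches 7.08 to 7.57 in the OS high pool.

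Within OS, total RNA was set against the mean of the 3 pools in the same fit. Its spread is pooled over all 8 groups and includes the control arrays that chose the probes. On the 9 control gradient arrays the selection asked for dim values, so the calls are a description. With no filter on dim probes, which lets every one of the 532 enter, 430 (80.8%) were called higher in OS total RNA and none lower, compared with 7.21% and 3.37% of all lncRNA probes (limma, adjusted p under 0.05). A total of 524 had a positive estimate. The median difference was 1.91 for the 532 and -0.09 for all lncRNA probes. Of all lncRNA probes 25.0% were well above background on all 3 OS total arrays, compared with 59.8% of the 532. The 532 were chosen as bright in control total RNA, so these shares and medians are not of like sets. With the filter used elsewhere, by which all arrays of some OS group must be well above background, 320 were tested and 307 were called higher, where 18.9% of the tested lncRNA probes were called higher and 13.8% lower. As 318 of the 320 entered through OS total RNA, where the filter asks for a high value, nothing is read from that count.

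The 5 largest differences within OS, given as bounds because no pool was well above background, began with those of ENST00000556475.1 and ENST00000584721.1. ENST00000556475.1 measured 9.14, 9.65 and 9.33 in OS total RNA and 2.84 to 2.87 on all 8 OS gradient arrays, and total RNA was at least 17.2-fold above the pools. ENST00000584721.1 was at least 27.6-fold above them, the highest bound among these 5 probes. ENST00000558593.1 followed with at least 17.3-fold, ENST00000555383.1 with at least 11.2-fold and ENST00000426991.1 with at least 10.9-fold. The other probes of ENST00000556475.1 and ENST00000555383.1 were each well above background on 1 control gradient array and that of ENST00000426991.1 on 3, and so were not among the 532. None of these 3 was well above background on any OS gradient array.

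The same selection among the mRNA (catalog) probes found 170 of 9916, or 1.71% of those on all 3 control total arrays. In total RNA, 86 of these 170 were called lower upon OS (50.6%) and 5 higher (2.94%), with a median change of -1.13. Over all tested lncRNA and mRNA probes together, 7.86% were called lower and 8.52% higher. The control total arrays chose these probes as well, so the counts are a description.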

How the data were processed

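RNA from MRC5 cells was measured on 24 Agilent single-color arrays in 8 groups of 3. The authors deposited scanner files from Feature Extraction version 10.7.3.1. Their processed signal is an intensity per spot, from which the software had subtracted the background, and each spot has flags. A normalized log2 table, which the authors also deposited and which comes from Partek per the labels, served as an alternative. Positions are those of the array design, on GRCh37.

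The processed intensity was log2-transformed and quantile-normalized separately over lncRNA (custom) and mRNA (catalog) probes, as the study's methods describe, on 23 arrays without OS low replicate 3. The 178 probes with an outlier flag were left out of the fits, and none of the 532 was among them. All 8 groups entered 1 linear model (limma 3.58.1, R 4.3.3), and p-values were adjusted by Benjamini-Hochberg over the probes tested. Testing required that all arrays of some compared group were well above background. Dim groups were bounded by the lowest signal among lncRNA probes well above background on each array. The number of arrays limits the precision. The fits were tested on simulated data.

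The 532 probes and the marker lists were chosen with earlier results of these data known. Probes were named by rules on the level of transcripts with both probes selected (5 transcripts), the largest non-overlapping called changes in total RNA (5 in each direction), presence on every array of an OS pool (8), the extremes of the control total signal, the OS total minus pools difference (5) and a gene symbol (5). RefSeq accessions of the catalog probes gave the current symbols. The arrays lay on 3 slides of 8. Control untranslated replicates 1 and 2 carry the same number in their labels and were counted as 2 samples.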

Additional observations from a re-analysis of the deposited data

Results flagged for a closer look

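On OS low replicate 3, the array left out of every comparison, 475 of the 532 probes were well above background, compared with 55 and 57 on the other OS low arrays and, by their selection, none on the control gradient arrays. The signal was raised over the whole of that array, with 93.3% of all lncRNA probes and 95.4% of the mRNA probes well above background. Groups of 3 arrays were too small to look for single outlying samples.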

How the results depend on the processing

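The direction of the change in total RNA was kept for the 532 as a set under every alternative run, with more lower than higher calls in each. The 240 lower calls became 98 where a probe had to be well above background on all 6 total RNA arrays (318 tested), and ranged from 199 with all 24 arrays to 325 with only the 6 total RNA arrays otherwise. The 15 higher calls became 9 with all 24 arrays, 33 with normexp and quantile normalization and 37 with only the total RNA arrays fitted. For the change in total RNA, shares over all tested probes are given for the main fit only. Without 1 total RNA array in turn there were 207 to 226 lower and 10 to 15 higher calls. With a replicate block 247 were called lower, 15 higher in total RNA and 308 higher in OS total RNA than in the pools, and no count moved by over 1.5 times. Same-numbered control and OS total arrays did not deviate together in every pair (correlations 0.093, -0.015 and 0.129), nor did OS total and OS untranslated arrays (0.180, -0.0086 and 0.252), while OS total and OS high arrays did (0.235, 0.104 and 0.303). The numbers were therefore not taken to pair the samples over the groups compared. With a slide block there were 246 lower and 18 higher calls. With the filter, the calls of OS total over the pools were 307 of 320 tested, and 296 to 323 without 1 OS array in turn. Nearly all of these probes entered through a high OS total value, so nothing is read from these counts or from the 308. With no filter 430 of the 532 were called.

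Detection depends on the flag. With the laxer flag 433 of the 532 were on at least 1 OS gradient array in place of 107, 279 on every array of a pool in place of 45, and 503 on every OS total array in place of 318. Used for the selection itself, it gave 199 probes in place of 532. With OS low replicate 3 included, 481 were on at least 1 OS gradient array. Without 1 array in turn the counts were 93 to 107, 45 to 63 (63 without OS low replicate 1), 319 to 348 and, for the number selected, 533 to 597. Among the single probes named, the near-zero change of LINC00312 (0.06 with both probes, neither called) ranged from -0.0506 to 0.1759 and from -0.0145 to 0.1879 without 1 array in turn, with negative values without control total replicate 1 or OS total replicate 1, and that of the second probe was -0.0244 with no normalization. The cause of these differences was not tested. How far above background a spot lies limits every count of detection.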
